A study of Homo sapiens with 4 samples.

Results

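Catalase and the enzymes that act beside it against superoxide and peroxides were followed in RNA sequencing of GATA2/eGFP-positive endothelial cells, differentiated from H1, a human embryonic stem cell line. GFI1-KO cells, labelled as a knockout of the transcriptional repressor gene GFI1, were set against wild-type (WT) cells, with 2 libraries of each genotype. Both genotypes carried the GATA2/eGFP reporter named in the study's design, and the labels do not give the knockout allele, the number of clones or whether the libraries came from separate cultures. The enzyme genes were chosen by name: CAT, SOD1, SOD2, PRDX1, PRDX2, PRDX3, GPX1, GPX4, TXN and TXNRD1. Of these 10 genes, 9 were found among the 19912 identifiers of the count table. GPX1, annotated as a polymorphic pseudogene in the annotation used for matching, had no match, so its level was not analysed here. SOD2 stood under 2 identifiers, so the 9 genes gave 10 identifiers, and all 10 passed the filter on low counts. CAT passed this filter through its WT libraries alone, with 0 and 7 counts in the GFI1-KO libraries. The set was built around the difference in CAT between the genotypes, so the differences of its members between GFI1-KO and WT are given as descriptions, without a test of their own.

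Cells that use oxygen form superoxide, which superoxide dismutases turn into hydrogen peroxide. Hydrogen peroxide is then removed along separate routes. Catalase, a haem enzyme of the peroxisome, splits it into water and oxygen without a reducing partner, while peroxiredoxins and glutathione peroxidases reduce it with electrons from thioredoxin and glutathione. In endothelium hydrogen peroxide also acts as a signal, and red cells carry large amounts of catalase and peroxiredoxin 2.

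Of the 4 libraries, GFI1-KO replicate 1 was shallow, with 146584 counts, against 2332621 for GFI1-KO replicate 2 and 2239214 and 2417410 for the WT libraries. A count of 3 stood for 19.9 CPM in that library and for 1.26 to 1.34 CPM in the others, where CPM is the usual depth-scaled unit, here with library totals adjusted by TMM. GFI1, the targeted gene, was at 19.9 and 19.6 CPM in GFI1-KO cells and 58.5 and 58.3 CPM in WT cells. GATA2, whose reporter defined the sorted cells, was at 139 and 124 CPM in GFI1-KO cells and 293 and 252 CPM in WT cells. All 10 endothelial markers were detected in every library, and their summed level was 9148 and 10343 CPM in GFI1-KO cells against 6998 and 7262 CPM in WT cells. KDR gave 3703 and 4970 CPM of the summed level in GFI1-KO cells and 2995 and 3285 CPM in WT cells. Of these markers, EMCN (2.38 on the log2 scale, SE 0.41, edgeR adjusted p = 0.00959) and CD34 (1.02, SE 0.22, edgeR adjusted p = 0.0357) passed as higher in GFI1-KO cells. Of the 10 markers, 9 had a log2 fold change above 0 and 1 below it. The 1 below was PECAM1 (-0.33, SE 0.21), at 344 and 324 CPM in GFI1-KO cells and 443 and 388 CPM in WT cells. Of all 11380 genes tested, 109 passed an adjusted p of 0.05 in edgeR's quasi-likelihood test, 88 higher and 21 lower in GFI1-KO cells.

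The stretch before the start of CAT is shown because CAT is the member around which the set was built. It covers 250 bases of RefSeq sequence on the plus strand at chr11:34438684-34438933 (GRCh38.p14), and capitals mark the letters CCAAT or, for the minus strand, ATTGG. Positions in this window are counted back from the base that follows it, taken as the start. The annotation used for matching starts CAT at 34438925, so the last bases of the window lie within the gene by that annotation.
CAT promoter: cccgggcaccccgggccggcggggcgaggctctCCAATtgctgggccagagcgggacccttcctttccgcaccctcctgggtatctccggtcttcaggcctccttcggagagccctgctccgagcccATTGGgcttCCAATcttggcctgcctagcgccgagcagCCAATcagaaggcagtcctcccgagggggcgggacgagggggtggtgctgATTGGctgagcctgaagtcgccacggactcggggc

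CCAAT, the box known to be bound by the factor NF-Y, occurred 5 times in this window, and 32.0% of all 35116 RefSeq windows of that length, from 27305 genes, held it at least once. A count of 5 or more was found in 0.319% of the windows. The letters AATC, the core of the sequence known to be bound by GFI1, occurred 3 times on either strand in the CAT window, and all 3 matches overlapped a CCAAT box. AATC was present in 64.8% of all windows and in 7 of 14 windows of the members, which covered 8 of the 10 genes. GPX1 was among these 8, while SOD1 and PRDX1 had no window. The GC box GGGCGG was found once before CAT, 59 to 54 bases before the start, in 14 of the 14 member windows and in 42.6% of all windows. The antioxidant response element, searched as TGACNNNGC, was absent from the CAT window and present in both windows of TXNRD1 and in 10.9% of all windows. The forkhead letters GTAAACA were in 0 of 14 member windows and in 2.98% of all windows.

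CAT transcripts were scarce in GFI1-KO cells. CAT (ENSG00000121691; chromosome 11, 34438925 to 34472062, plus strand, GRCh38) had 0 and 7 counts in GFI1-KO replicates 1 and 2, against 38 and 45 counts in WT replicates 1 and 2. In CPM these were 0 and 3.12 in GFI1-KO cells and 17.0 and 18.9 in WT cells, so both GFI1-KO libraries lay below both WT libraries. The pooled level in GFI1-KO cells was 0.163 of that in WT cells, with an exact 95% counting interval of 0.0634 to 0.350. The fitted log2 fold change was -2.61 (SE 0.58), and 22 of the 11380 tested genes had a value as low or lower.

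The difference rests on GFI1-KO replicate 2. At the WT level, GFI1-KO replicate 1 would have held 2.71 counts of CAT, and its count of 0 allowed up to 19.9 CPM by the limit of 3 counts and up to 24.4 CPM by the exact 95% interval, both above both WT values. GFI1-KO replicate 2 alone stood at 0.174 of the pooled WT level, with an exact 95% interval of 0.0677 to 0.374, and its interval of 1.25 to 6.42 CPM did not reach those of WT replicate 1 (12.0 to 23.3 CPM) or WT replicate 2 (13.8 to 25.3 CPM). The intervals cover counting error only. CAT shared exon bases with no other annotated gene.

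**Figure D1:**
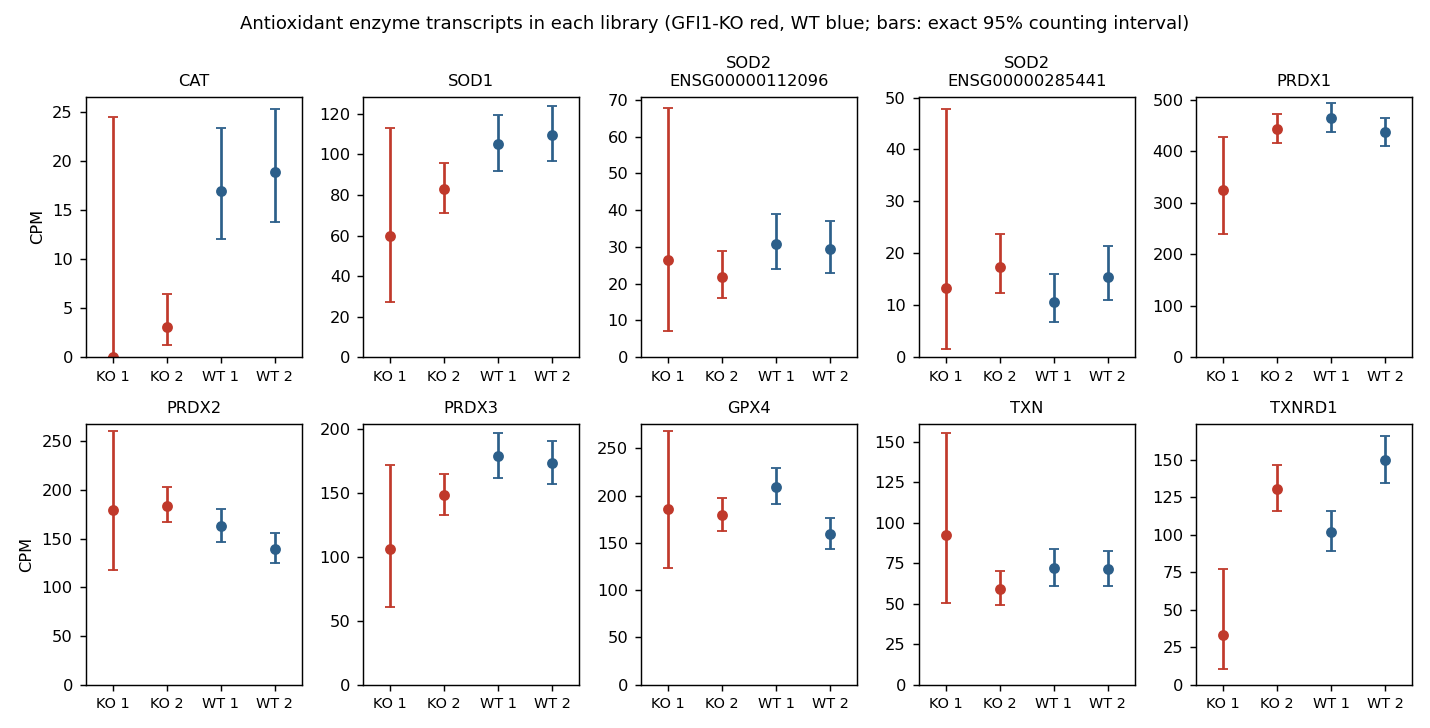
Level of each member in CPM in GFI1-KO replicates 1 and 2 (red) and WT replicates 1 and 2 (blue), with exact 95% counting intervals as bars; each panel has its own axis from 0. CAT stands at 0 and 3.12 CPM in GFI1-KO cells against 17.0 and 18.9 CPM in WT cells, and the intervals of the shallow GFI1-KO replicate 1 are the widest in every panel.

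CAT was the member that passed the threshold over all genes tested, and 0 of the other 9 identifiers did; of all tested genes, 0.958% passed, 0.773% as higher and 0.185% as lower in GFI1-KO cells. This contrast chose the set, so nothing is read from that count. CAT lost the call without WT replicate 1, without WT replicate 2, with upper-quartile scaling, with library totals alone and with a filter at a mean of 5 CPM, DESeq2 gave it no adjusted p, and its fitted value stayed between -2.80 and -2.51 in all of these. Of the other 9 identifiers, 7 had a log2 fold change below 0 and 2 above it, with a median of -0.18 and a range from -0.47 to 0.35. The median of all tested genes was -0.024, and the middle 50% of them lay between -0.26 and 0.23. In 4 of the 9 identifiers the GFI1-KO and WT libraries did not overlap, which held for 41.2% of all tested genes.

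Both superoxide dismutases had lower values in GFI1-KO cells under their main identifiers. SOD1, the copper and zinc enzyme of the cytosol, was at 59.6 and 82.8 CPM in GFI1-KO cells and 105 and 110 CPM in WT cells. The groups did not overlap, and the log2 fold change was -0.47 (SE 0.25), the lowest among the members other than CAT. SOD2, the manganese enzyme of mitochondria, was at 26.5 and 21.8 CPM in GFI1-KO cells and 30.8 and 29.4 CPM in WT cells under ENSG00000112096 (log2 fold change -0.42, SE 0.35). Under ENSG00000285441 it was at 13.2 and 17.4 CPM in GFI1-KO cells and 10.7 and 15.5 CPM in WT cells (0.35, SE 0.43). The 2 identifiers pointed in opposite directions, and neither was called. They share 845 exon bases, so reads there may have been dropped or split. With both summed, a choice made after seeing the data, the log2 fold change was -0.14 (SE 0.29). Exons of SOD2 also overlap those of ACAT2 (1141 bases) and WTAP on the opposite strand, and whether strand was counted is not given.

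The peroxiredoxins, which reduce hydrogen peroxide through a reactive cysteine, did not share a direction. PRDX1, an abundant enzyme of the cytosol, was at 325 and 444 CPM in GFI1-KO cells and 465 and 438 CPM in WT cells, and the groups overlapped (log2 fold change -0.18, SE 0.22). PRDX2, its close relative that is abundant in red cells, was at 179 and 184 CPM in GFI1-KO cells and 163 and 140 CPM in WT cells. It was the only identifier of the set with both GFI1-KO libraries above both WT libraries (0.27, SE 0.23), which held for 18.6% of all tested genes. PRDX3, the mitochondrial member, was at 106 and 148 CPM in GFI1-KO cells and 179 and 173 CPM in WT cells. Its GFI1-KO libraries lay below the WT libraries (-0.37, SE 0.24). Exons of PRDX1 overlap those of MMACHC on the opposite strand, and those of PRDX2 overlap an antisense gene; the strand setting of the counting is not given in the sources used here.

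The glutathione peroxidase and thioredoxin genes overlapped between the genotypes. GPX4, a selenoprotein that reduces lipid peroxides in membranes, was at 185 and 179 CPM in GFI1-KO cells, between the WT values of 209 and 159 CPM (log2 fold change -0.023, SE 0.24). TXN, which encodes the cytosolic thioredoxin that passes electrons to peroxiredoxins, was at 92.7 and 59.2 CPM in GFI1-KO cells, on either side of the WT values of 71.9 and 71.3 CPM (-0.12, SE 0.27). TXNRD1, the selenoprotein that recharges thioredoxin with electrons from NADPH, was at 33.1 and 130 CPM in GFI1-KO cells and 102 and 149 CPM in WT cells (-0.25, SE 0.33). The 2 GFI1-KO libraries were far apart for TXNRD1. GFI1-KO replicate 1 held 5 counts where 19.1 would have stood at the WT level, and without GFI1-KO replicate 2 the log2 fold change of TXNRD1 was -1.91 (SE 0.56) and passed the threshold, which it did in no other setting tried.

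**Figure D2:**
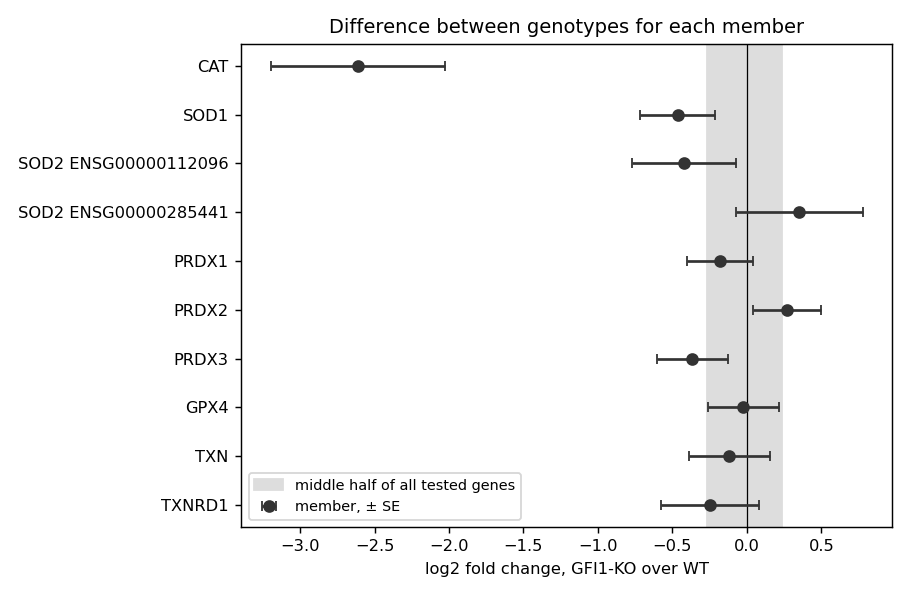
Log2 fold change of GFI1-KO over WT for each identifier (points, with ± SE as bars), with the range of the middle 50% of all tested genes as a grey band from -0.26 to 0.23. CAT stands at -2.61, apart from the other identifiers, which run from -0.47 to 0.35.

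Set against the other enzymes within each library, catalase made up 0% and 0.245% of the counts of all 10 member identifiers in GFI1-KO replicates 1 and 2, and 1.25% and 1.45% in WT replicates 1 and 2. The exact 95% interval for GFI1-KO replicate 1 reached 2.37%, above both WT shares, on 154 member counts. For GFI1-KO replicate 2 the interval was 0.0987% to 0.505%, below those of WT replicate 1 (0.889% to 1.72%) and WT replicate 2 (1.06% to 1.93%). The pooled share in GFI1-KO cells was 0.172 of that in WT cells, with an interval of 0.0671 to 0.371. The summed level of the 9 identifiers other than CAT was 1020 and 1267 CPM in GFI1-KO cells and 1336 and 1285 CPM in WT cells. Both GFI1-KO sums lay below both WT sums, and the gap was small in GFI1-KO replicate 2.

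Per length, catalase stood near the foot of the set already in WT cells. In CPM per kilobase of merged exon, PRDX1 had the highest level in both genotypes, 252 ± 55.4 in GFI1-KO cells and 296 ± 12.6 in WT cells (SD, n = 2 each). GPX4 (91.3 ± 17.6) and PRDX2 (72.2 ± 7.71) followed in WT cells and differed by less than their summed SDs. TXN was next (62.7 ± 0.345), then SOD1 (53.1 ± 1.61) and PRDX3 (51.5 ± 1.10), and the last pair also differed by less than their summed SDs. TXNRD1 was at 18.7 ± 5.02. CAT was at 0.434 ± 0.614 in GFI1-KO cells and 4.99 ± 0.377 in WT cells, where it did not differ beyond the spread from SOD2 under ENSG00000285441 (5.13 ± 1.33). SOD2 under ENSG00000112096 was the lowest in WT cells (1.82 ± 0.0616), over an annotated exon length of 16493 bases. In GFI1-KO cells the mean of CAT was the lowest of the 10, but it includes the 0 of the shallow replicate 1, and in GFI1-KO replicate 2 the counting interval of CAT (0.349 to 1.79 CPM per kilobase) overlapped that of SOD2 under ENSG00000112096 (0.978 to 1.75 CPM per kilobase). Divided by the longest transcript, the order in WT cells changed for SOD1 and PRDX3 and for CAT and SOD2 under ENSG00000285441, which changed places.

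**Figure D3:**
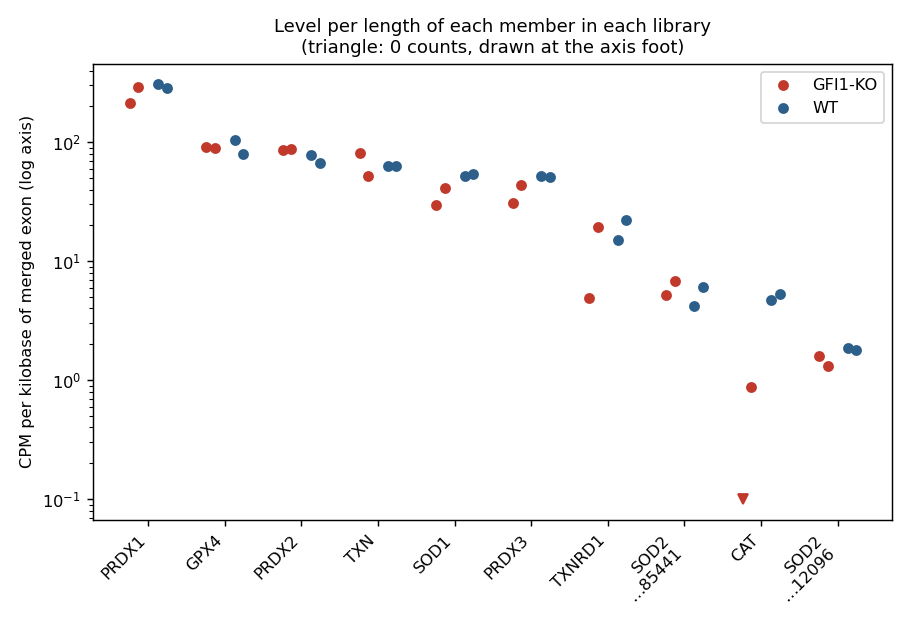
Level of each member per kilobase of merged exon, in CPM per kilobase on a log axis, with 1 point per library (GFI1-KO red, WT blue), ordered by the WT mean; the triangle marks a count of 0. PRDX1 stands highest, with a WT mean of 296, and by the mean CAT is number 10 in GFI1-KO cells, with the 0 of replicate 1 included, and number 9 in WT cells.

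Genes known to serve the same chemistry were looked up in 10 lists with 157 gene symbols. The lists gave 156 identifiers in the count table, of which 124 were tested. Of these, 0 rose and 0 fell at an edgeR adjusted p of 0.05, and 0 passed with DESeq2; at an unadjusted p under 0.05 there were 9 of 124, or 7.26%, against 9.35% of all tested genes. Their median log2 fold change was -0.092, with 53 of 124 above 0.

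Among 8 tested peroxidases and dismutase partners outside the set, with a median of -0.23, the smallest p belonged to SOD3 and PRDX6. SOD3, the secreted superoxide dismutase, had 3 and 8 counts in GFI1-KO cells and 35 and 19 in WT cells (-1.21 on the log2 scale, SE 0.68, edgeR adjusted p = 0.65). PRDX6 was at 113 and 208 CPM in GFI1-KO cells and 243 and 238 CPM in WT cells (-0.43, SE 0.25, adjusted p = 0.68). The 10 tested genes of the thioredoxin and glutaredoxin system had a median of -0.057, and the stress-induced sestrin genes SESN1 (-0.61, SE 0.40) and SESN3 (0.48, SE 0.36) had the smallest p. The genotypes did not overlap for either sestrin gene, which held for 41.2% of all tested genes, and the directions were opposite. The gaps were narrow, with SESN1 at 21.4 CPM in GFI1-KO replicate 2 against 21.8 CPM in WT replicate 2. SESN3 was at 38.7 CPM in GFI1-KO replicate 2 against 38.0 CPM in WT replicate 1.

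The 23 genes of glutathione and NADPH supply had a median of -0.25. GSTO1, a glutathione transferase gene, was at 92.7 and 81.9 CPM in GFI1-KO cells and 163 and 122 CPM in WT cells (-0.75, SE 0.26, adjusted p = 0.262). SLC7A11, the cystine importer that feeds glutathione synthesis, had 2 and 21 counts in GFI1-KO cells and 6 and 9 in WT cells (1.58, SE 0.61, adjusted p = 0.332). In the NRF2 pathway, the main inducible antioxidant response, the median over 15 genes was 0.079. The ferritin gene FTH1 was at 464 and 491 CPM in GFI1-KO cells and 750 and 642 CPM in WT cells (-0.54, SE 0.21, adjusted p = 0.372), and KEAP1, which holds NRF2 in check, had a value of -0.55 (SE 0.29). FTH1 shares exon bases with BEST1.

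Catalase sits in peroxisomes, and neither list of peroxisomal genes held a call. Of 13 peroxisome biogenesis genes, with a median of -0.11, PEX13 had a log2 fold change of 0.50 (SE 0.37) and PEX7 of -0.72 (SE 0.72). Of 23 peroxisomal enzymes and transporters, with a median of -0.28, HSD17B4, an enzyme of fatty acid breakdown, was at 72.9 and 129 CPM in GFI1-KO cells and 174 and 169 CPM in WT cells (-0.58, SE 0.25, adjusted p = 0.459). NUDT19 had 0 and 15 counts in GFI1-KO cells and 31 and 33 in WT cells (-1.18, SE 0.54, adjusted p = 0.495). For both genes the GFI1-KO libraries lay below the WT libraries, which held for 22.7% of all tested genes, and neither gene passed.

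Catalase needs haem, and UROD, an enzyme of haem synthesis, had the smallest p of all 124 identifiers. It was at 46.4 and 51.6 CPM in GFI1-KO cells and 99.1 and 93.2 CPM in WT cells, with a fitted difference of -0.92 on the log2 scale (SE 0.26, edgeR adjusted p = 0.131). It passed with a replicate block (adjusted p = 0.0465) and missed the threshold in the other alternatives. CPOX, another enzyme of that route, had a value of -0.46 (SE 0.27), and the 8 haem genes had a median of -0.26. The 8 genes of selenoprotein synthesis, on which GPX4 and TXNRD1 depend, had a median of -0.0040, with TRNAU1AP at 0.46 (SE 0.37) and EEFSEC at -0.52 (SE 0.42).

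Regulators and sources of peroxide held no call. Of 8 FOXO factors and coactivators, which are known to drive CAT and SOD2, the median was -0.25, and ESRRA (-0.69, SE 0.32) and PPARGC1B (-0.52, SE 0.45) had the smallest p. Of 8 tested sources of superoxide and peroxide, with a median of 0.12, the oxidase subunit gene RAC2 had a value of -0.88 (SE 0.38) and NOS3, the endothelial nitric oxide synthase gene, of 0.41 (SE 0.22). NOS3 was at 298 and 381 CPM in GFI1-KO cells and 263 and 265 CPM in WT cells.

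**Figure D4:**
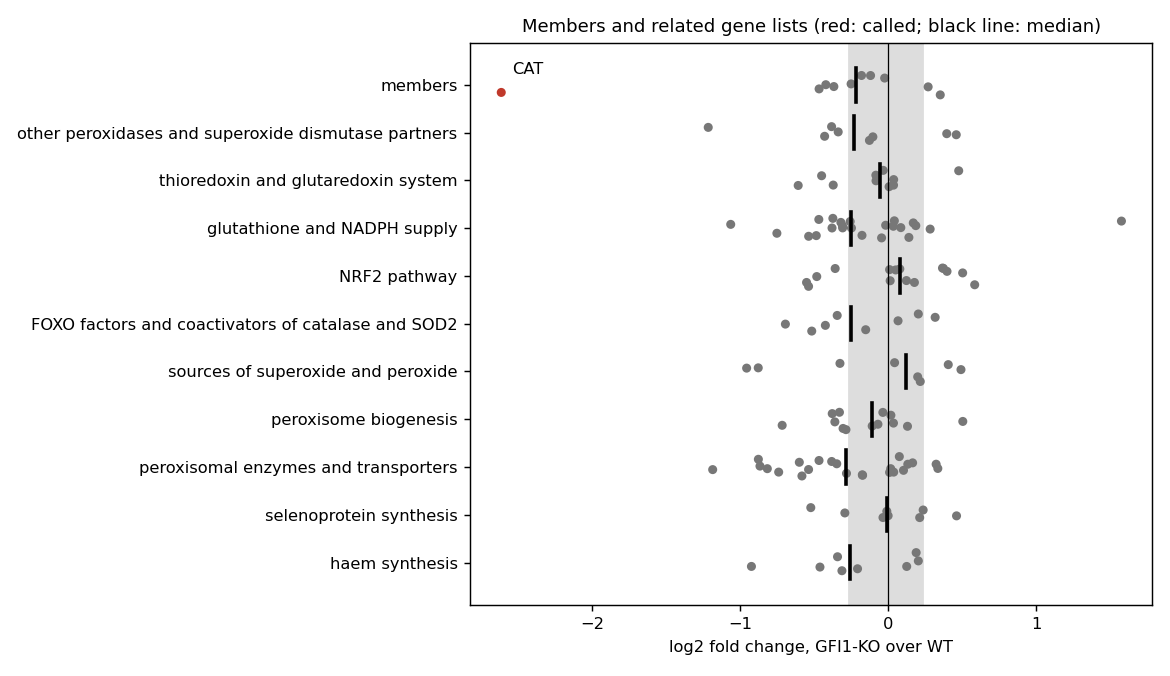
Log2 fold change of GFI1-KO over WT for the tested members (top) and for the tested genes of 10 related lists, 1 point per identifier, with the median as a black line and the middle 50% of all tested genes in grey. CAT, in red at -2.61, is the called point, and list medians lie between -0.28 and 0.12.

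The genes around CAT on chromosome 11 held no call. Of the 14 other genes in the table that start, on their own strand, within 1 Mb of its start, 9 were tested and 0 passed, with a median log2 fold change of -0.13, 5 values below 0 and 4 above. ABTB2, which starts 80.9 kb before CAT and is the nearest tested gene by its start, had 1 and 25 counts in GFI1-KO cells and 5 and 15 in WT cells (1.28, SE 0.61, edgeR adjusted p = 0.527). NAT10, an RNA acetyltransferase gene, had a value of -0.71 (SE 0.30, adjusted p = 0.435) and CAPRIN1 of -0.22 (SE 0.21). LMO2, a cofactor gene of blood and endothelial development, was at 185 and 193 CPM in GFI1-KO cells and 177 and 190 CPM in WT cells (0.052, SE 0.22). On the far side of CAT, APIP (0.030, SE 0.53), PDHX (-0.38, SE 0.35) and CD44 (-0.13, SE 0.34) lay within little more than 1 SE of 0, as did CD59 (0.42, SE 0.40) and FBXO3 (-0.14, SE 0.47) at the other end of the window. ELF5, which starts 74.9 kb beyond the start of CAT, had 0 counts in all 4 libraries.

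**Figure D5:**
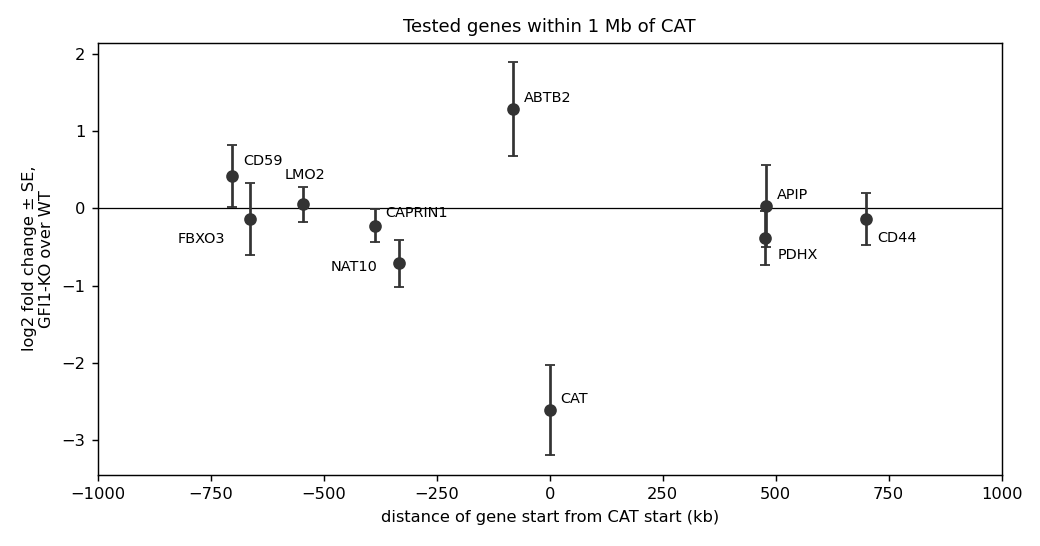
Log2 fold change of GFI1-KO over WT (± SE) for the 9 tested genes within 1 Mb of CAT and for CAT itself, against the distance of each gene's start from that of CAT in kb. CAT stands at -2.61 and its neighbours between -0.71 and 1.28.

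The genes whose pattern over the 4 libraries was most like that of CAT were SLCO4A1, KLF1, FAM83F, SLC27A5 and CD33. Likeness was the root mean square difference between log2 CPM values centred on each gene's mean, which was 0.199 for SLCO4A1, 0.243 for the erythroid factor gene KLF1, 0.262 for FAM83F, 0.337 for SLC27A5 and 0.350 for the myeloid marker gene CD33. KLF1 had 0 and 5 counts in GFI1-KO cells and 23 and 39 in WT cells, and CD33 had 0 and 3 counts against 19 and 28. All 5 had 0 counts in the shallow library, so the likeness rests on the other 3 libraries.

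Some markers of blood cells were low in the same libraries as CAT, and others were not. Of 14 erythroid markers, 6 were lower in both GFI1-KO libraries than in both WT libraries, at low counts. This order held for 22.7% of all tested genes. GATA1 had 0 and 1 counts in GFI1-KO cells and 10 and 9 in WT cells, and ANK1 had 1 and 4 counts in GFI1-KO cells and 38 and 21 in WT cells. The summed level of the list was 46.4 and 37.4 CPM in GFI1-KO cells and 71.5 and 63.4 CPM in WT cells. EPOR, the erythropoietin receptor gene, gave 39.7 and 32.5 CPM of these sums in GFI1-KO cells and 34.8 and 29.8 CPM in WT cells. In every library 6 globin genes were at 0. Of these globin genes, HBE1, HBG1, HBG2 and HBZ share exon bases with other genes on the same strand, such as 781 bases of HBE1 with AC104389.4. Reads there may have been dropped, so a count of 0 does not show that their transcripts were absent. Of the 3 erythroid markers tested, 0 passed, with KLF1 at -2.66 on the log2 scale (SE 0.69, edgeR adjusted p = 0.079). The 10 leukocyte markers summed to 199 and 259 CPM in GFI1-KO cells and 259 and 257 CPM in WT cells, and PTPRC, the pan-leukocyte gene, was at 0 in every library. LAPTM5 alone gave 185 and 231 CPM of these sums in GFI1-KO cells and 230 and 217 CPM in WT cells. With all 10 markers the sums of the genotypes overlapped. Without LAPTM5, left out after the values were seen, the list summed to 13.25 and 27.60 CPM in GFI1-KO cells and 29.03 and 39.87 CPM in WT cells. Both GFI1-KO sums then lay below both WT sums, at low counts. The 13.25 CPM of GFI1-KO replicate 1 came from 2 counts of ITGB2 alone. Of the 4 leukocyte markers tested, 0 passed, with 1 log2 fold change above 0 and 3 below. SPN had 0 and 9 counts in GFI1-KO cells and 21 and 32 in WT cells (-1.62, SE 0.62). ITGB2 was at 13.2 and 8.90 CPM in GFI1-KO cells and 6.25 and 7.97 CPM in WT cells. AIF1 had 0 and 14 counts in GFI1-KO cells and 4 and 4 in WT cells, and CORO1A had 0 and 14 counts in GFI1-KO cells and 6 and 5 in WT cells. The part of these cells in the difference of CAT was not tested, and in sorted bulk cells fewer cells of a type and less RNA per cell cannot be told apart.

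The mesenchymal and pluripotency markers that were tested gave no call. Of 8 tested mesenchymal markers 0 passed, and their list summed to 2226 and 2375 CPM in GFI1-KO cells and 2979 and 2142 CPM in WT cells. The 8 pluripotency markers summed to 603 and 570 CPM in GFI1-KO cells and 748 and 779 CPM in WT cells, mostly LIN28A. The 3 of them that were tested had log2 fold changes below 0, and 0 passed. ZFP42 had 0 and 21 counts in GFI1-KO cells and 52 and 54 in WT cells (-1.44, SE 0.47, edgeR adjusted p = 0.208). The 8 endoderm and hepatic markers, from tissue rich in catalase, held 0 and 8 counts in GFI1-KO cells and 11 and 9 in WT cells in all. Of these 8 markers, 0 passed the filter on low counts, so no call could be made.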

How the data were processed

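The authors deposited raw read counts per gene, with a column for each of the 4 libraries. The submitters' processing notes name DESeq (1.18.1), HTSeq (0.6.0), HISAT2 (2.0.4) and SAMtools (1.3.1) and the builds hg38 and GRCh38; how reads were filtered, which annotation was used and whether strand was counted is not given in the sources. Per the labels' protocols, libraries were made from total RNA with a TruSeq kit. Of 19912 identifiers, 19902 were matched to GENCODE release 29 for symbols, coordinates and exon lengths.

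The test was edgeR's quasi-likelihood test (edgeR 4.0.16, glmQLFit and glmQLFTest under R 4.3.3) with genotype as the term, TMM factors and the default filterByExpr. This filter turns a count of 10 at the median library size into a CPM cutoff. A gene has to reach that cutoff in at least 2 libraries and hold a total of 15 counts. P-values were adjusted by Benjamini-Hochberg over 11380 genes. Fold changes carry a prior count of 0.125, and the SE is the absolute unshrunken value divided by the square root of F. The code was tested on simulated data. Alternatives were DESeq2 1.42.0, other scalings, filters and dispersion, a block for replicate number, and fits without each library. The labels do not tie the libraries to separate cultures, so p-values reflect the variation between libraries, which may be technical. The members and lists were chosen with earlier results of these data known. From each pathway list the text names the genes past the threshold or, where there were none, the 2 with the smallest p; all genes tested near CAT are named. The marker genes named were chosen after their values were seen.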

Additional observations from a re-analysis of the deposited data

How the results depend on the processing

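The number of genes called, 109, was 103 with RLE size factors, 72 with library totals alone, 58 with upper-quartile scaling, 58 with the newer quasi-likelihood dispersion, 50 with a mean of at least 5 CPM, 31 with DESeq2, 305 without a low-count filter and 327 with a replicate block, and between 62 and 373 when a library was left out. CAT was called in 5 of 10 alternatives with an adjusted p, and its log2 fold change lay between -2.80 and -2.51 in 11 alternatives. The number of members called was 0 with DESeq2 (which gave CAT no adjusted p), library totals alone, upper-quartile scaling and a mean of at least 5 CPM, and between 0 and 1 when a library was left out: CAT was called without GFI1-KO replicate 1 and not called without WT replicate 1 or WT replicate 2. Without GFI1-KO replicate 2, no CAT counts were left in GFI1-KO, so no fold change is given, and the member called was TXNRD1. The number of pathway genes called was 1, UROD, with the replicate block, and 0 in the other alternatives. Of 120 member fold changes under the alternatives, 115 lay within 1 SE of the reported value, and the other 5 (SOD1, PRDX1, PRDX3, TXN and TXNRD1) came from leaving out GFI1-KO replicate 2; TXN turned to 0.38. In level per length, CAT was number 9 in WT cells by merged exons and number 8 by the longest transcript. The pooled ratio of CAT's share was 0.172 within the members and 0.158 within the library total. Replicate numbers are not tied to a shared culture in the labels, so samples were not paired. The correlation of replicate differences between the genotypes was 0.116. This value cannot decide on pairing, because counting error in the shallow GFI1-KO replicate 1 pulls it towards 0. Depth limits GFI1-KO replicate 1, where 3 counts stand for 19.9 CPM. Why results moved between alternatives was not tested.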
